A study of Mus musculus with 10 samples.

Results

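Slc2a1, Ppp1r3c and Akr1b3 are 3 genes of glucose handling that the submitters' tables list as changed by GDNF in the cultured ureteric bud. Their probe sets were found by Entrez identifier or symbol in the authors' deposited comparison tables, which name 634 genes. The 3 genes held 6 of the 1005 probe sets in those tables. Slc2a1 had 3 listed probe sets, 1 on U74Av2 and 2 on 430A. Ppp1r3c had 1 and Akr1b3 had 2, all on 430A. The arrays hold 35178 probe sets in all, of which those outside the tables carry no gene name here, so any further probe set of the 3 genes was not analysed here. These tables hold only probe sets that the authors selected for a difference between the GDNF groups, so the contrast described here is the one that chose the members, and its values are given as a description with no test.

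The study cultured ureteric buds, the epithelial outgrowth that forms the collecting system of the kidney, from E11.5 Swiss Webster mouse embryos in Matrigel, a basement membrane gel. The plus GDNF group received 100 ng/mL GDNF, the ligand of the Ret receptor complex, for 16 h, and the minus GDNF group was cultured for 16 h without it. Each Affymetrix array type carried 3 plus GDNF and 2 minus GDNF arrays, 10 arrays in 4 groups, and the RNA of each came from some 5 to 6 pools, with 30 to 40 buds in a pool. The limits of the model are that the buds were isolated from their mesenchyme and that every value is an average over many pooled buds.

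Glucose enters most embryonic and epithelial cells through facilitative transporters of the Slc2 family, and Slc2a1 (Glut1) is the widespread basal one. Inside the cell it can be phosphorylated for glycolysis, stored as glycogen or reduced to sorbitol. Ppp1r3c, also called PTG, brings protein phosphatase 1 to the glycogen particle, where dephosphorylation activates glycogen synthase. Akr1b3 is the mouse aldose reductase, the enzyme of the first polyol pathway step, which reduces glucose to sorbitol with NADPH and also reduces other aldehydes. In the kidney medulla sorbitol is known as an osmolyte.

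The windows around the transcription start that RefSeq gives for these genes were read for what the members share beyond the choice of genes. The RefSeq promoter table of GRCm38.p6 gave a window for Slc2a1 and Ppp1r3c, 2 of the 3 members, each running from 250 bases before the start to 50 bases from it. Both hold the letters ACGTG, known as the core of hypoxia response elements, which 19.6% of the 32851 windows in that table hold on either strand. Slc2a1 has 1 match, 36 bases upstream of the start, and Ppp1r3c has matches at 189 and 104 bases upstream. The nearer Ppp1r3c match is the palindrome CACGTG, an E box as bound by carbohydrate response and Myc family factors, in which the matches of both strands overlap, and 7.15% of the windows hold it. The stretches around the matches are shown, 5′ to 3′ along each gene's strand, with the matched letters in capitals; CACGT is ACGTG read on the opposite strand.
Slc2a1, chr4:119108681-119108741, plus strand: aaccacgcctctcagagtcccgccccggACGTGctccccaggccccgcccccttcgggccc
Ppp1r3c, chr19:36736761-36736821, minus strand, distal match: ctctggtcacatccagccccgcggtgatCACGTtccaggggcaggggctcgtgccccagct
Ppp1r3c, chr19:36736675-36736736, minus strand, E box: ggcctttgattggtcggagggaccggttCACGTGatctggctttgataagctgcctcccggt

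Neither window held TGGAAA, the start of osmotic response elements (21.4% of windows), CGGAAG, a core of ETS sites (16.9%), or TGACG, the first letters of the cAMP response element (20.8%), on either strand. These are matches of letters, counted without any measurement of binding.

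Slc2a1 was higher with GDNF on its 3 listed probe sets. On 430A, probe set 1426599_a_at read 468, 470 and 471 on the plus GDNF arrays, against 254 and 235 on the minus GDNF arrays. All values are intensities on a linear scale, the authors' summary of the short probes for 1 transcript region. The plus GDNF arrays were almost identical for this probe set and lay above both minus GDNF arrays. It averaged 470 ± 1.66 in plus GDNF buds and 244 ± 13.7 in minus GDNF buds (SD, n = 3 and n = 2), a 1.92-fold difference (log2 0.94 ± 0.09 SE).

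The other listed 430A probe set of the transporter, 1434773_a_at, read 631, 615 and 787 with GDNF and 383 and 383 without. Here the spread lay in the plus GDNF group, where array 3 stood above the others, and the groups again did not overlap. The difference was 1.76-fold (log2 0.81 ± 0.14 SE). The suffix of both probe sets marks probes that can match several transcripts of 1 gene. The ratio of 1434773_a_at to 1426599_a_at was 1.35, 1.31 and 1.67 on the plus GDNF arrays and 1.51 and 1.63 on the minus GDNF arrays, so the probe sets did not keep 1 ratio within the plus GDNF group.

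On U74Av2 the Slc2a1 probe set 93738_at read 798, 746 and 805 with GDNF, against 511 and 592 without. The lowest plus GDNF array was 155 units above the highest minus GDNF array. The means were 783 ± 32.0 in plus GDNF buds and 552 ± 56.8 in minus GDNF buds (SD, n = 3 and n = 2), a 1.42-fold difference (log2 0.51 ± 0.14 SE). The log2 difference was thus 0.51 on U74Av2 against 0.94 and 0.81 on 430A. Whether the array types differ was not tested, since the types have separate value tables and the gene was chosen on both.

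The arrays of the types carried different pools, so an array number does not join a U74Av2 array to a 430A array. Within the plus GDNF group, U74Av2 array 3 read 0.04 log2 units above the group mean on 93738_at. The 430A array 3 read 0.005 above it on 1426599_a_at and 0.23 above it on 1434773_a_at, and was the highest of its group on both.

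Ppp1r3c, the glycogen scaffold, was lower with GDNF. Its probe set 1433691_at read 325, 318 and 280 on the plus GDNF arrays and 631 and 588 on the minus GDNF arrays. The lowest minus GDNF array was 262 units above the highest plus GDNF array, and plus array 3 was the lowest of all 5. The group means were 308 ± 24.3 in plus GDNF buds and 609 ± 30.4 in minus GDNF buds (SD, n = 3 and n = 2), so that the level without GDNF was 1.98 times that with it (log2 change of -0.99 ± 0.11 SE). In size this was close to the change of Slc2a1 1426599_a_at, with the opposite sign. No probe set of this gene was named on U74Av2, so its change there was not analysed here.

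Akr1b3, the aldose reductase, was lower with GDNF on both of its listed 430A probe sets. Probe set 1448319_at read 1560, 1618 and 1613 with GDNF, against 2519 and 2723 without. The SD of the plus GDNF arrays was 2.00% of their mean, and the nearest arrays of the groups were 901 units apart. The level without GDNF was 1.64 times that with it (log2 change of -0.71 ± 0.09 SE).

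Probe set 1437133_x_at of the same gene read 1497, 1718 and 2043 with GDNF and 2635 and 2928 without. The groups did not overlap, though plus array 3 stood well above plus array 1, and the SD over mean in the plus GDNF group was 15.7%. The mean was 1753 ± 275 in plus GDNF buds and 2782 ± 207 in minus GDNF buds (SD, n = 3 and n = 2), a log2 change of -0.68 ± 0.15 SE. The suffix _x_at marks a probe set with some probes that also match other transcripts, so part of this signal may belong to other sequences, which was not tested. The ratio of 1448319_at to 1437133_x_at ran from 0.789 on plus array 3 to 1.04 on plus array 1, and was 0.956 and 0.930 on the minus GDNF arrays.

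**Figure D1:**
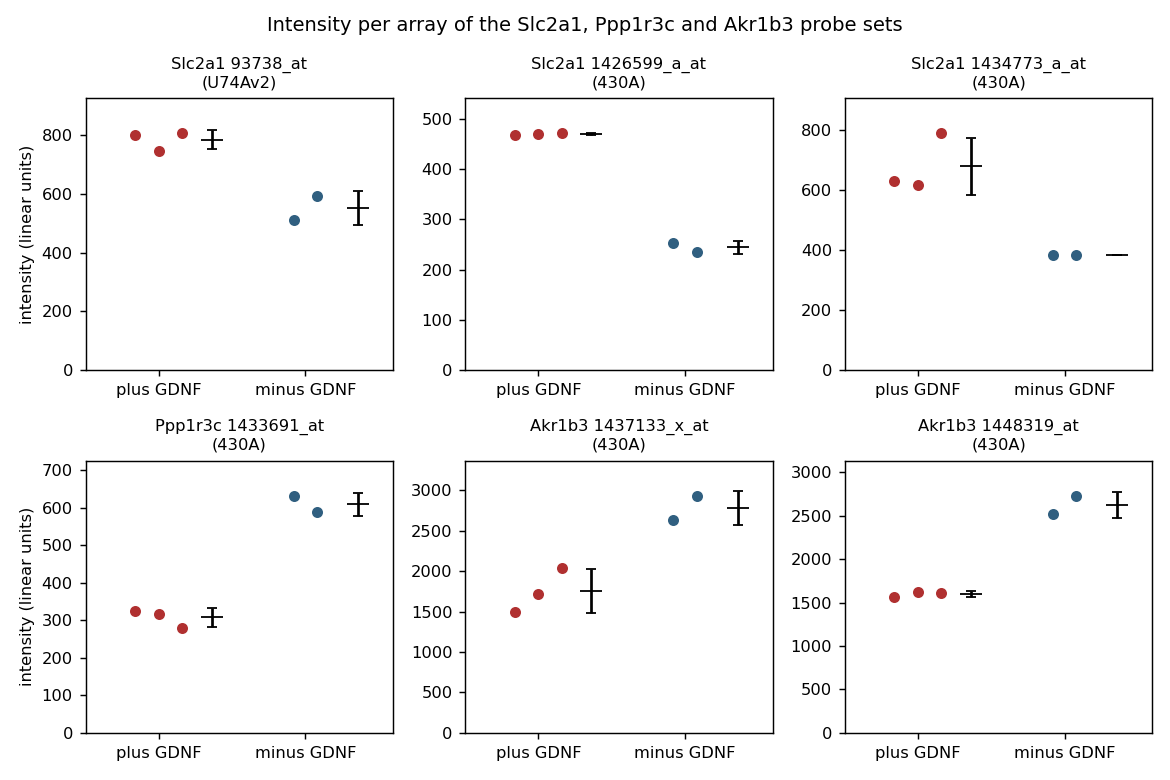
Intensity of each probe set on every array (linear axis from 0), with plus GDNF arrays in red on the left, minus GDNF arrays in blue on the right, each in the order of their sample numbers, and the group mean ± SD in black. The groups do not overlap in any of the 6 panels, and the widest plus GDNF spreads belong to Slc2a1 1434773_a_at and Akr1b3 1437133_x_at, where array 3 is highest.

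No group overlap was seen for any of the 6 probe sets. On 430A, 15.3% of all 19521 probe sets tested had every plus GDNF array above both minus GDNF arrays and 15.7% had every plus GDNF array below them, and on U74Av2 17.5% of 10588 had every plus GDNF array above. The members were taken from the authors' tables of changed probe sets, so their own count adds nothing to that selection. The authors' deposited table for 430A lists 2.39% of that type's probe sets as higher and 0.665% as lower, and the authors' deposited table for U74Av2 lists 2.19% as higher. By limma with Benjamini-Hochberg adjustment over all probe sets of a type, 0% of the 430A probe sets (0 of 19521, with 2588 at an unadjusted p under 0.05) and 0.00944% of those on U74Av2 (1 of 10588) passed an adjusted p under 0.05.

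The authors' own values can be set beside these. In the authors' deposited table for 430A, 1426599_a_at of Slc2a1 has a fold of 1.91 with bounds of 1.73 and 2.12, and 1434773_a_at has 1.77 with bounds of 1.5 and 2.04. In the authors' deposited table for U74Av2, 93738_at has 1.40 with bounds of 1.27 and 1.55. The lower bound of 1.27 is the member value nearest to the authors' filter, which asked for a lower 90% bound over 1.2. Ppp1r3c has -1.99 in the authors' deposited table, with bounds of -1.73 and -2.30, where the minus sign marks a fall. For Akr1b3 the authors' deposited table gives -1.64 (bounds -1.5 and -1.79) for 1448319_at and -1.59 (bounds -1.34 and -1.91) for 1437133_x_at.

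By size of the authors' fold, Ppp1r3c stood at rank 6 of the 151 probe sets that the authors' deposited table for 430A lists as lower. The Akr1b3 probe sets stood at ranks 33 and 42 of the same 151. Slc2a1 stood at ranks 105 and 165 of 542 listed as higher in the authors' deposited table for 430A, and at 260 of 273 in the authors' deposited table for U74Av2. Ppp1r3c is therefore near the top of its list, while the U74Av2 probe set of Slc2a1 is near the bottom of its own.

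**Figure D2:**
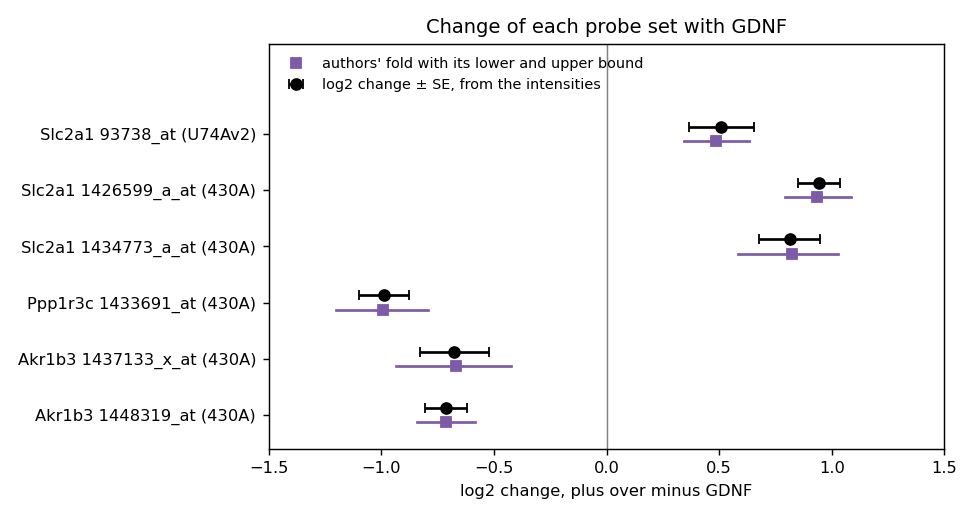
Change of each probe set as log2 of plus over minus GDNF, with black points for the difference of mean log2 intensities ± SE and purple squares for the authors' fold with its lower and upper bound on the same scale. The 3 Slc2a1 probe sets lie to the right of 0, from 0.51 to 0.94, and the Ppp1r3c and Akr1b3 probe sets to the left, from -0.68 to -0.99.

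The spread inside the plus GDNF group does not use the difference between the groups, but it is not free of the authors' selection. Their filter asked for a lower bound of the fold over 1.2, and such a bound falls as the spread grows. A probe set with a small fold could therefore be listed only if its arrays varied little, while a large fold allows a wider spread. On each type, plus array 3 was set against the mean of plus arrays 1 and 2 of that type, and it was singled out after its values for markers of the bud tip, the domain of Ret signalling, were seen. On 430A, Ret, the GDNF receptor kinase, stood at 0.543 times that mean and Etv4, an ETS transcription factor of the Ret pathway, at 0.516 times. The 6 listed 430A probe sets of 5 bud tip markers ran from 0.516 to 0.898, and 5 of them lay below the 5th percentile of all 430A probe sets tested, 0.763. On U74Av2, which is a separate array of other pools, Ret stood at 0.478 times, Etv4 at 0.756 and Wnt11, a secreted Wnt of the bud tip, at 0.779, and 1 of these 3 probe sets lay below that type's 5th percentile, 0.740.

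For Slc2a1 the same ratio was 1.00 and 1.26 on 430A and 1.04 on U74Av2. For Ppp1r3c it was 0.870, and for Akr1b3 it was 1.02 and 1.27, all on 430A. Over all 430A probe sets tested the median was 0.990 and the 95th percentile 1.27, and over all those on U74Av2 the median was 1.11 and the 95th percentile 1.62. All 6 member probe sets lay between the 5th and 95th percentiles of their array type, with Slc2a1 1434773_a_at and Akr1b3 1437133_x_at near the upper one. The authors' folds ran from 1.40 to 1.99 in size for the members. For the bud tip markers they ran from 1.55 to 5.52 on 430A and from 3.03 to 27.37 on U74Av2. How far the authors' filter narrowed the members' ratios was not tested. The 542 probe sets listed as higher in the authors' deposited table for 430A had a median of 0.951. These ratios rest on 1 array of each type and are a description, not a test.

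**Figure D3:**
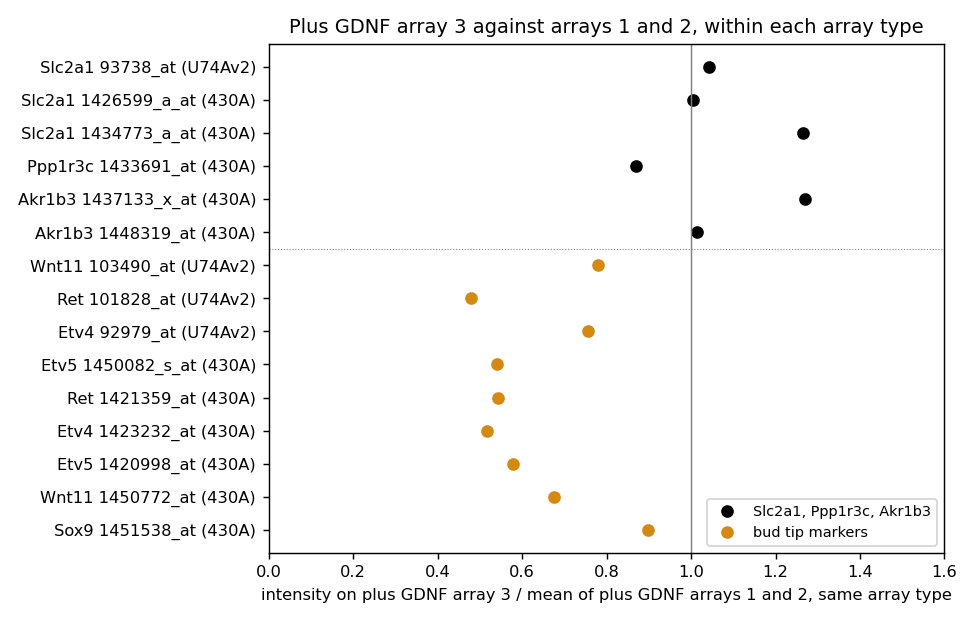
Intensity on plus GDNF array 3 divided by the mean of plus GDNF arrays 1 and 2 of the same array type, for the 6 member probe sets (black, above the dotted line) and the 9 bud tip marker probe sets (orange), where 1 means no difference. The members sit between 0.870 and 1.27, and the bud tip markers between 0.516 and 0.898 on 430A and between 0.478 and 0.779 on U74Av2.

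The genes with levels most like each member were sought among the genes named in the authors' tables, 542 others on 430A and 274 on U74Av2. Likeness was the root mean square difference of log2 intensities over the 5 arrays of a type, after centring each probe set on its own mean, between the average of the member's probe sets and the closest probe set of each other gene. Both the members and the genes searched had been listed for a GDNF difference, and 2 of the 5 arrays lacked GDNF, so this measure largely finds genes with a GDNF difference of the same sign and size. For Slc2a1 on 430A the nearest were Cdca3 at 0.03 log2 units, the replication kinase Cdc7 at 0.04, the chromatin protein Hmgb1 at 0.06, the phosphatase Dusp9 at 0.06 and Mis18a, a factor of centromere assembly, at 0.06, with log2 changes of their own from 0.79 to 0.94. The 2 Slc2a1 probe sets of that type differed from each other by 0.14, more than any of these genes differed from their average, so the order among near neighbours is not resolved by these arrays. For Slc2a1 on U74Av2 they were the poly(ADP-ribose) polymerase Parp1 at 0.04, Capn6 at 0.05, and Psph, Mrpl30 and Cenpa at 0.06 each, with log2 changes from 0.41 to 0.57. No gene was among the 5 nearest on both types.

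For Ppp1r3c the 5 nearest were the nucleoside transporter Slc29a1 at 0.12, the Notch ligand relative Dlk1 at 0.12, the matrix protein Sparc at 0.13, the small heat shock protein Hspb1 at 0.14 and Pdzk1ip1 at 0.15, with log2 changes from -0.79 to -1.16. For Akr1b3 they were Mettl7a1 at 0.04, and Tinagl1, Parm1, the adhesion molecule Ncam1 and Tma16 at 0.06 to 0.07, with log2 changes from -0.61 to -0.77. Its own 2 probe sets differed by 0.13. The median over all genes searched was 0.205 for Slc2a1 on 430A, 0.778 for Ppp1r3c and 0.649 for Akr1b3, and 542 of the 693 listed 430A probe sets were higher with GDNF.

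**Figure D4:**
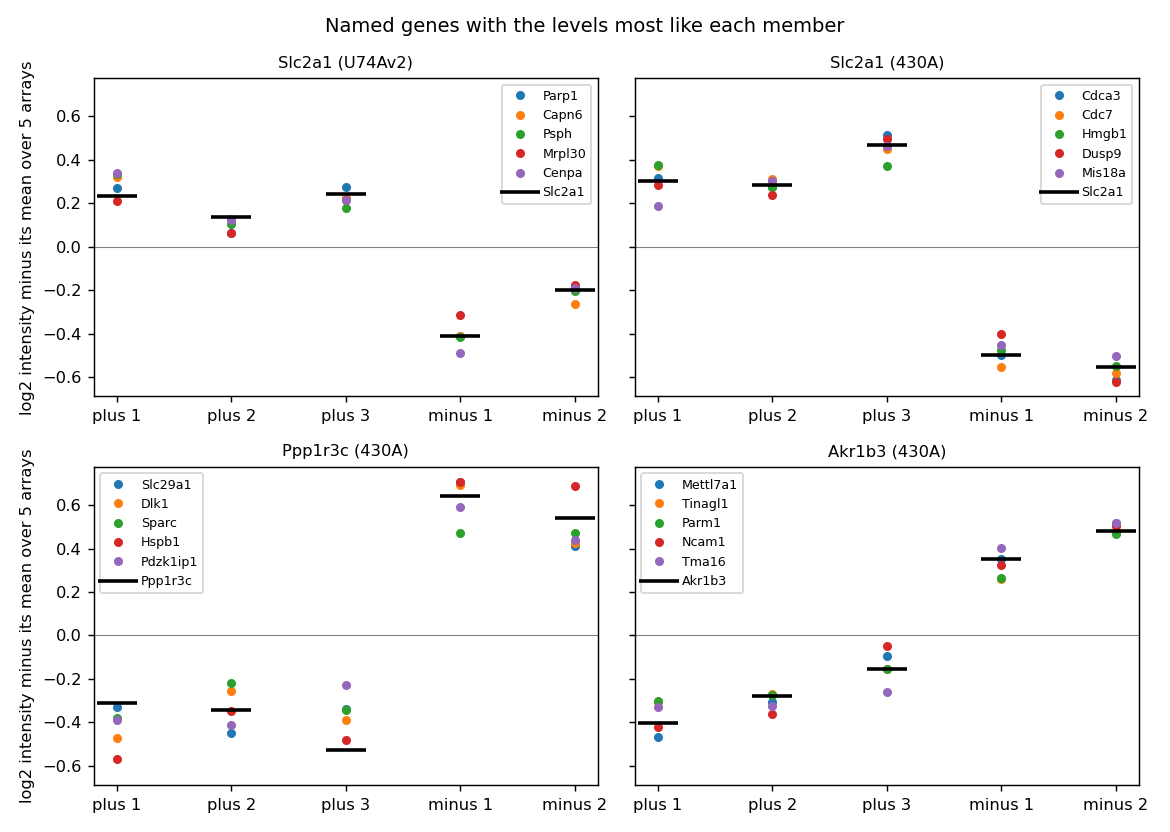
Log2 intensity of each member (black bars, averaged over its probe sets) and its 5 nearest named genes (coloured points) on each array, centred on the mean over the 5 arrays of the type. In each panel the points lie on the same side of 0 as the member's bars in both groups.

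Other genes of glucose metabolism were taken from 9 lists covering transport, glycolysis, glycogen, the polyol and pentose phosphate pathways, gluconeogenesis and hexosamines, osmotic and hypoxia responses and glucose sensing. Without the members they hold 151 genes, of which 3 had a named probe set on 430A and 0 on U74Av2, and the other 148 and 151 were not analysed here. All 3 were higher with GDNF, as were 542 of the 693 listed 430A probe sets. By limma 0 of 3 passed, and of all 19521 probe sets tested on 430A 0 passed. Each had been listed by the authors on the same contrast. None of the 34 glycolysis and lactate genes, the 18 hypoxia response genes, the other 31 glycogen genes or the other 14 glucose transporters had a named probe set on either type.

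Tkt, the transketolase of the pentose phosphate pathway, read 2767, 2654 and 2965 with GDNF and 1902 and 1860 without (log2 0.57 ± 0.10 SE, limma adjusted p = 0.10). Pck2, the mitochondrial phosphoenolpyruvate carboxykinase, read 676, 738 and 648 with GDNF, against 471 and 392 without (log2 0.68 ± 0.12 SE, limma adjusted p = 0.11). Aldh1a1, an aldehyde dehydrogenase kept in the polyol and fructose list and better known for making retinoic acid, read 424, 552 and 290 with GDNF and 223 and 192 without (log2 0.98 ± 0.27 SE, limma adjusted p = 0.22). In all 3 every plus GDNF array was above both minus GDNF arrays, as in 15.3% of all 430A probe sets tested. Aldh1a1 varied most among the plus GDNF arrays, with the lowest value on array 3. The direction of these 3 was that of Slc2a1 and of most probe sets listed on 430A. It was opposite to that of Akr1b3, the other named member of the polyol list.

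**Figure D5:**
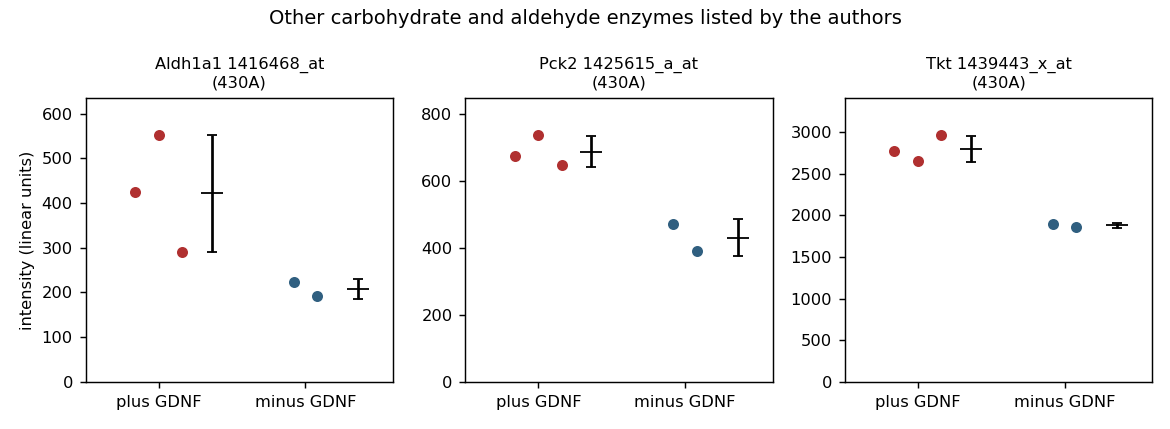
Intensity of Aldh1a1, Pck2 and Tkt on every 430A array (linear axis from 0), plus GDNF in red on the left and minus GDNF in blue on the right, with group mean ± SD in black. Each plus GDNF array lies above both minus GDNF arrays, with Aldh1a1 array 3 at 290 coming closest to its minus GDNF arrays at 223 and 192.

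The arrays measured whole buds, so fewer cells of a type and less RNA per cell cannot be told apart. On 430A, 3 of 13 stromal markers had a named probe set (Vim, Postn and Tcf21), and their summed level was 1464 to 2018 with GDNF and 2796 to 2798 without. Of 9 markers of the nephron mesenchyme 2 were named (Cdh11 and Cited1), with sums of 710 to 852 with GDNF and 1122 to 1130 without. A marker has a name here only where the authors listed it for a GDNF difference, so these sums do not stand for the whole lists. The bud epithelium was represented by 7 probe sets of Calb1, Lhx1, Krt8, Npnt and Cdh16, 5 of 13 markers. Their sums were 16077 to 18149 with GDNF and 20009 to 20825 without. Krt8, Npnt and Cdh16 were lower while Calb1 and Lhx1 were higher, 4 probe sets lower and 3 higher. The sums add linear intensities, so bright probe sets weigh most, and this sum does not give a direction for the bud epithelium. For the bud tip, 5 of 7 markers were named, and all 6 of their probe sets were higher with GDNF. The bud tip sums were 3498 to 5867 with GDNF and 2021 to 2133 without. On U74Av2, 1 stromal marker was named, Acta2, which read 399, 443 and 513 with GDNF and 507 and 705 without, so its groups overlapped. Calb1 and 3 bud tip markers were also named there, all higher with GDNF. None of the 5 endothelial and none of the 7 blood and macrophage markers had a named probe set on either type. The part of cell makeup in the members' values was not tested.

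The median intensity ran from 211 to 248 over the U74Av2 arrays and from 281 to 321 over the 430A arrays. Precision is limited by there being 5 arrays of a type. All 6 member probe sets lay above the floor set at the 20th percentile on every array, the closest being Slc2a1 1426599_a_at, whose lowest value was 1.64 times the floor.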

How the data were processed

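The deposited value tables hold 1 linear intensity per probe set and array, and how the authors normalized and summarized them is not given in the sources used here. Per the series text, groups were compared in dChip 1.3, and the authors' deposited tables give a signed fold (unit score) with bounds for probe sets with a lower 90% bound over 1.2 and a difference of means over 100. Groups and sample numbers came from the titles. Names came from Entrez identifiers in those tables, updated with RefSeq GRCm38.p6: 661 of 693 probe sets had 1 gene on 430A and 292 of 312 on U74Av2. Other probe sets were left unnamed.

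Intensities were floored at the 20th percentile of each table (143 on 430A, 65.0 on U74Av2) and log2 was taken. Control probe sets and those at the floor on all 5 arrays were left out. A two-sided fit per type used limma 3.58.1 (R 4.3.3) over all probe sets, and the fit was tested on simulated data. SE values are limma's moderated ones. The text names the members, every list gene with a named probe set, and the 5 nearest genes. Members and lists were chosen with earlier results of these data known. The series text says that each chip had different pooled samples.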

Additional observations from a re-analysis of the deposited data

How the results depend on the processing

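The direction of each of the 6 log2 changes was kept in 24 of 24 values with all arrays (2 normalizations, 2 floors) and in 30 of 30 with 1 array left out. The groups of these probe sets did not overlap, so leaving out 1 array could not reverse a direction. The floors moved only Slc2a1 1426599_a_at, to 0.940 at the 40th percentile, since the members lay above or near them. These counts are therefore no support for the changes. Slc2a1 1426599_a_at, at 0.94, became 1.01 with quantile normalization and 1.01 with array medians centred, and Akr1b3 1448319_at, at -0.71, became -0.65 with medians centred. With the sample number as a replicate block, which gives plus array 3 no partner, all 6 changes equalled those without that array: 0.49 (Slc2a1 93738_at), 0.94 (1426599_a_at), 0.70 (1434773_a_at), -0.92 (Ppp1r3c), -0.79 (Akr1b3 1437133_x_at) and -0.72 (1448319_at). Deviations of same-numbered plus and minus arrays from their group means correlated at 0.16 and -0.70 on U74Av2 and -0.02 and -0.62 on 430A. The 2 minus GDNF deviations of a type are each other's with the sign reversed. These correlations therefore cannot show whether the numbers pair arrays. Leaving out 1 array gave 0.40 to 0.61 for Slc2a1 93738_at, 0.89 to 1.00 for 1426599_a_at, 0.70 to 0.88 for 1434773_a_at, -1.04 to -0.92 for Ppp1r3c, -0.79 to -0.57 for Akr1b3 1437133_x_at and -0.77 to -0.66 for 1448319_at. The count of probe sets that limma called was 1 on U74Av2 and became 0 with the floor at the 40th percentile, 2 with no filter on low values, 3 with a trended robust variance and 5 at an adjusted p under 0.1. It was 0 with any 1 U74Av2 array left out. On 430A it was 0 and became 30 with the floor at the 10th percentile, 48 with a trended robust variance and 198 at an adjusted p under 0.1. The cause was not tested. With 2 minus GDNF arrays a type, leaving 1 out leaves a lone array, assumed to vary like the plus GDNF arrays.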
